A study of Homo sapiens with 12 samples.

Results

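The 36 genes described here carry glucose through glycolysis to lactate, feed the pentose phosphate pathway, regulate both, or report on oxygen and glucose. They were chosen by gene symbol, as a list of 35 symbols plus PKM, which the tables list under its older symbol PKM2. All 36 were found among the 23273 genes listed for each line. By role they were 2 glucose transporters, 2 lactate transporters, 17 glycolytic enzymes, 3 PFKFB enzymes, 4 pyruvate dehydrogenase kinases, 3 pentose phosphate enzymes, and 5 genes that respond to hypoxia or glucose.

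RNA was sequenced from 2 human BRAF-mutant melanoma lines, COLO858 and MMACSF, grown in culture. Each line was treated with DMSO, the vehicle, or with 0.2 μM vemurafenib, an inhibitor of the mutated BRAF kinase, for 24 or 48 h. There were 2 replicates in each of the 6 groups, 12 libraries in all. The sources do not say which of these times the DMSO libraries come from, and both drug times were set against the same DMSO pair of their line. The lines were kept in different media and seeded at different densities, so a difference between lines cannot be told apart from a difference in medium or density.

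As background, glycolysis splits glucose into pyruvate, which is either reduced to lactate by lactate dehydrogenase or used in mitochondria by pyruvate dehydrogenase. Tumor cells often make much lactate even with oxygen, and oncogenic signaling through ERK, MYC, and the hypoxia-inducible factors (HIF) raises transcription of many glycolytic genes. The HIF factors bind DNA at a short core that reads ACGTG or GCGTG, and the glucose-sensing factors MondoA and ChREBP bind paired E-box-like motifs, of which the TXNIP promoter holds a well-known example.

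Values are in FPKM (fragments per kilobase, relative to all fragments mapped), a scale on which levels can be set side by side between genes. Changes are given as log2 fold-changes of FPKM + 1 with their standard error (SE), so that changes of genes near 1 FPKM are understated. A gene was tested in a line if its mean reached 1 FPKM in at least 1 group. It was called when its Benjamini-Hochberg adjusted p from limma, taken over all genes tested, was under 0.01. In bulk RNA, fewer cells of one kind and less RNA per cell cannot be told apart. The sources say only that plates were seeded in 2 replicates, so p-values measure the spread between these samples, which may be technical.

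The libraries were first set against their labels. Of 10 genes downstream of RAF and ERK, 8 fell in each line at each time, as called by limma. Of all genes tested, 5.71% at 24 h and 4.73% at 48 h were called lower in COLO858, and 3.6% and 5.41% in MMACSF. The melanocytic genes SOX10, PMEL, DCT, MITF, and S100B were measured in every library, but MLANA stayed under 1 FPKM in COLO858 (0.299 to 0.725), where TYR ranged from 0.282 to 1.21. Keratinocyte, leukocyte, and endothelial markers together summed to at most 0.85 FPKM in any library. The 8 melanocytic markers, which include TYRP1, summed to 702 and 717 FPKM in COLO858 under DMSO, against 3922 to 4158 in its drug libraries. In MMACSF they summed to 11160 and 11370 against 15590 to 17550. The single markers did not all rise. At 48 h, 5 of the 7 tested in COLO858 had a change above 0 and 2 below 0. In MMACSF 7 of the 8 tested were above 0 and 1 below. The part of these markers in the results below was not tested. The small RNA gene MIR4461 took 14.1% to 43.4% of the summed FPKM of a library, more in replicate 2 than in replicate 1 of every group. FPKM is per kilobase, so for a short gene this part is larger than its part of the fragments. Without small RNA genes in the fit, the counts of called members given next became 11 and 12 in COLO858 at 24 and 48 h. In MMACSF they became 11 and 14. The share of all genes called in that fit is not given here, so these shifts are not read as results about the members.

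Most of the 36 genes were lower in vemurafenib, and 1 gene was called higher in both lines. In COLO858, 6 of the 35 members tested were called at 24 h, where 9.82% of all genes tested were called, and 11 at 48 h, where 9.47% were. In MMACSF, 7 of 33 were called at 24 h, beside 5.83% of all genes, and 13 at 48 h, beside 8.83%. TXNIP was the 1 member called higher in each of these comparisons, where 4.11% and 4.74% of all genes in COLO858 and 2.22% and 3.42% in MMACSF were called higher. The members called lower numbered 5 in COLO858 and 6 in MMACSF at 24 h, beside 5.71% and 3.6% of all genes. At 48 h they numbered 10 and 12, beside 4.73% and 5.41%. Of those at 48 h, 6 were called lower in both lines: HK2, PGAM1, ENO1, PKM2, LDHA, and PFKFB4. That is 6 of 10 in COLO858 and 6 of 12 in MMACSF. The same overlap was not counted over all genes called lower, so it is not shown to be particular to these members.

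The whole list moved by less than its leading genes. The members tested in COLO858 had a median change (log2) of -0.44 at 24 h and -0.70 at 48 h, while that of all genes tested was 0.06 and -0.01. In MMACSF it was -0.53 and -0.57, while that of all genes was 0.07 and 0.06. Changes at 48 h were below 0 for 28 of 35 members in COLO858 and for 28 of 33 in MMACSF. Both 48 h libraries lay below both DMSO libraries for 24 of 35 members in COLO858, as for 31.4% of all genes tested, and for 26 of 33 in MMACSF, as for 28.8%.

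**Figure D1:**
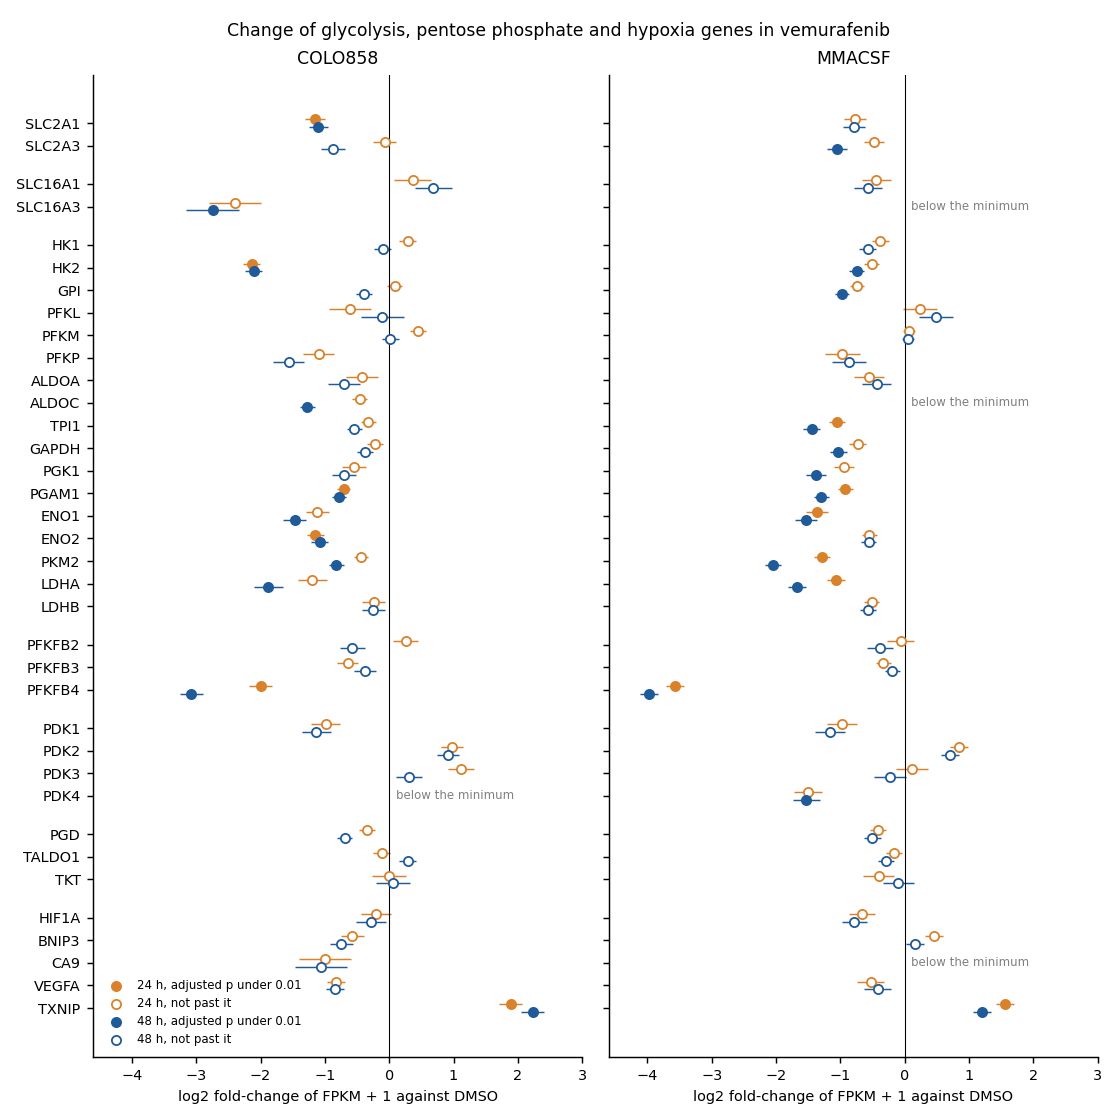
Log2 fold-change of FPKM + 1 against DMSO for the 36 genes, ordered by role, at 24 h (orange) and 48 h (blue) in COLO858 and MMACSF. Bars are the limma SE, filled points have an adjusted p under 0.01, and genes below the 1 FPKM minimum have no point. PFKFB4 lies farthest to the left in both lines at 48 h, at -3.08 and -3.97, and TXNIP farthest to the right, at 2.23 and 1.21.

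Most calls at this threshold, in fits without a replicate block, rested on all libraries of a comparison. With any 1 of the 4 libraries left out, 0 of the 6 calls at 24 h in COLO858 and 1 at 48 h were left, and in MMACSF 1 at 24 h and 1 or 2 at 48 h, although every called change kept its sign. PFKFB4 was the call left each time in COLO858 at 48 h and in MMACSF at both times, joined by PKM2 in MMACSF at 48 h for 2 of the 4. A median-ratio rescaling of the libraries gave 6 calls at 48 h in COLO858, without SLC2A1, SLC16A3, PGAM1, ENO1, ENO2, and PKM2 and with SLC2A3. The share of all genes called after rescaling is not given here. With the replicate number as a block, 25 and 27 members were called at 24 and 48 h in COLO858, beside 45% and 43.7% of all genes, and 25 at each time in MMACSF, beside 26.1% and 30.1%. The labels share these numbers between groups without saying that they pair libraries.

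The promoters of 3 genes are shown because these genes are among the 4 members with the largest called changes, namely PFKFB4, which fell most at 48 h, HK2, whose fall differed between the lines, and TXNIP, which rose. The other one, SLC16A3, had no match of the HIF core in its window and is not shown. Sequences are from RefSeq on GRCh38.p14, 5′ to 3′ on the strand of the gene, with positions counted back from the listed start site. Capitals mark ACGTG or GCGTG on either strand (CACGT and CACGC on the other strand) and, in TXNIP, also a pair of CACGAG. For PFKFB4 only the 30 bases around its single match are given, from -178 to -149, at chr3:48556952-48556981 on the minus strand. The rest was left out because other transcripts of PFKFB4 start within the full window, and positions relative to those starts were not taken. For HK2 the window from -250 to -1 lies at chr2:74833877-74834126 on the plus strand, and for TXNIP at chr1:145996580-145996829 on the minus strand.
PFKFB4: tgagttgggcatGCGTGgtcggaggccggg
HK2: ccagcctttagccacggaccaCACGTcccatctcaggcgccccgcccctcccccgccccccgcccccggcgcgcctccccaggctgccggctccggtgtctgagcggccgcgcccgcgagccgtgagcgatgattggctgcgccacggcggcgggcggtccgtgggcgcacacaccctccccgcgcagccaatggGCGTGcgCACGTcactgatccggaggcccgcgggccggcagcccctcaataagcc
TXNIP: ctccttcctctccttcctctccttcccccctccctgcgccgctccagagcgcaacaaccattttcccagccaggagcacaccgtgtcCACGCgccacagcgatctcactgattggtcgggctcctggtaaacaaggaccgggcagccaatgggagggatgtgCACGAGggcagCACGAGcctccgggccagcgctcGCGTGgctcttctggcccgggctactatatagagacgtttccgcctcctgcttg

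HK2 held 3 matches of the core, and 2 of them stood close together near the start site, at -55 and -48. RefSeq promoters, from 250 bases before to 50 after a start site, were matched for 32 of the 36 genes, not for SLC2A3, SLC16A1, PFKFB2, and VEGFA. ACGTG or GCGTG, on either strand, was found between -250 and -1 in 18 of 32, which is 56.2%, beside 43.1% of 27305 promoters. ACGTG alone was found in 12 of 32 (37.5%, beside 18.7% of all). CACGTG, which contains ACGTG on both strands, was found in 4 of 32, those of LDHA, GAPDH, ALDOC, and BNIP3 (12.5%, beside 6.49%). A pair of CACGNG motifs with 5 bases between them was found in TXNIP alone among the 32, starting at -88, and in 16 of all promoters (0.0586%). The TXNIP pair was known before the search, so finding it there is no new result. These matches are letters in a window and no binding was measured.

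Glucose enters through the GLUT transporters. SLC2A1 (GLUT1, chr1:43391024-43424564 on GRCh37) was at 10.0 and 8.99 FPKM in the DMSO libraries of COLO858, 3.69 and 3.73 at 24 h, and 4.23 and 3.58 at 48 h. The drug libraries were all lower than the DMSO libraries, and it fell at 24 h (log2 -1.15 ± 0.15, adjusted p = 0.00606) and at 48 h (-1.10 ± 0.15, adjusted p = 0.00739). In MMACSF it was at 6.60 and 7.26 FPKM under DMSO, 3.42 and 3.85 at 24 h, and 3.12 and 4.13 at 48 h. There too no drug library reached a DMSO library, but the changes of -0.78 ± 0.17 and -0.79 ± 0.17 missed the threshold (adjusted p = 0.0321 and 0.0264).

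SLC2A3 (GLUT3) is a transporter of higher affinity for glucose. In COLO858 it was at 17.2 and 20.8 FPKM under DMSO, 16.7 and 19.4 at 24 h, and 8.87 and 11.01 at 48 h. Only the 48 h libraries were below the DMSO pair, and the change of -0.87 ± 0.18 was not called (adjusted p = 0.0244). MMACSF libraries held it at 5.57 and 6.76 FPKM under DMSO, 4.30 and 4.0 at 24 h, and 2.58 and 2.33 at 48 h, and it fell at 48 h (-1.05 ± 0.16, adjusted p = 0.00922). The 24 h libraries of MMACSF were also below the DMSO pair, but that change of -0.47 ± 0.16 was not called (adjusted p = 0.091). From 24 to 48 h limma called SLC2A3 in neither line (adjusted p = 0.0738 in COLO858 and 0.447 in MMACSF).

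Hexokinase traps glucose in the cell as glucose 6-phosphate, and HK2 is the isoenzyme that many tumors induce. HK2 (chr2:75061254-75120486) was at 17.7 and 17.2 FPKM in the DMSO libraries of COLO858 and at 3.09, 3.32, 3.26, and 3.33 in the 4 drug libraries. The whole drop was present at 24 h. It fell by a log2 change of -2.13 ± 0.13 after 24 h (adjusted p = 0.00101) and -2.10 ± 0.13 after 48 h (adjusted p = 0.0011), a 4.39-fold and a 4.30-fold fall of FPKM + 1. In MMACSF, HK2 was at 25.8 and 24.9 FPKM under DMSO, 17 and 17.9 at 24 h, and 14.8 and 14.5 at 48 h. It fell at 48 h (-0.75 ± 0.11, adjusted p = 0.00977), and at 24 h the change was -0.52 ± 0.11 (adjusted p = 0.0321). HK1, the constitutive isoenzyme, was not called in either line and ranged from 65.6 to 95.1 FPKM in COLO858 and from 34.2 to 56.0 in MMACSF.

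The share of HK2 in the summed FPKM of HK1 and HK2 does not depend on how the libraries were scaled. In COLO858 it was 18.5% and 19.5% under DMSO, 3.15% and 3.67% at 24 h, and 4.26% and 4.82% at 48 h. In MMACSF it was 31.6% and 32.2% under DMSO, 27.5% and 31.8% at 24 h, and 28.0% and 29.8% at 48 h. The share was far lower in every drug library of COLO858 than under DMSO, whereas in MMACSF it overlapped with DMSO at 24 h and lay a little below it at 48 h. With 2 against 2 libraries the smallest two-sided exact permutation p is 0.333, so shares were not tested.

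GPI converts glucose 6-phosphate to fructose 6-phosphate, just after the branch to the pentose phosphate pathway. COLO858 libraries held it at 174 and 166 FPKM under DMSO, 179 and 182 at 24 h, and 122 and 137 at 48 h, and neither change was called (0.09 ± 0.12 and -0.39 ± 0.12, adjusted p = 0.62 and 0.0656). The values in MMACSF were 125 and 135 FPKM under DMSO, 76.6 and 77.6 at 24 h, and 63.2 and 67.2 at 48 h. It fell there at 48 h (-0.98 ± 0.11, adjusted p = 0.00413), and the change at 24 h was -0.74 ± 0.11 (adjusted p = 0.0105).

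Phosphofructokinase commits the sugar to glycolysis, and none of its 3 genes was called within a line. PFKP, the platelet form, was lower in every drug library than in the DMSO libraries of its line, at -1.56 ± 0.24 in COLO858 (adjusted p = 0.0104) and -0.87 ± 0.27 in MMACSF (adjusted p = 0.0686) at 48 h. PFKM, the muscle form, was the most abundant of the 3 in every library and ranged from 83.0 to 126 FPKM in COLO858 and from 387 to 416 in MMACSF. The PFKP share of the 3 was 29.6% and 26.7% under DMSO in COLO858 and 10.1% to 15.3% in drug, and 15.9% and 13.4% against 6.09% to 9.31% in MMACSF. PFKL, the liver form, ranged from 25.0 to 59.3 FPKM in COLO858 and from 28.6 to 52.4 in MMACSF.

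PFKFB enzymes make and break fructose 2,6-bisphosphate, the strongest activator of phosphofructokinase. PFKFB4 (chr3:48555117-48599448) was at 75.1 and 63.2 FPKM in the DMSO libraries of COLO858, 16.5 and 16.5 at 24 h, and 8.38 and 6.33 at 48 h. For MMACSF the levels were 39.5 and 35.9 FPKM under DMSO, 2.35 and 2.17 at 24 h, and 1.34 and 1.60 at 48 h. This was the largest called fall among the members in each line at 48 h. The log2 change in COLO858 was -1.997 ± 0.18 after 24 h and -3.08 ± 0.18 after 48 h (adjusted p = 0.0024 and 0.000895), and in MMACSF -3.57 ± 0.14 and -3.97 ± 0.14 (adjusted p = 0.000503 and 0.000345). On the FPKM + 1 scale these 48 h changes were falls of 8.43-fold and 15.7-fold.

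The other PFKFB genes were not called in any comparison within a line. PFKFB3 ranged from 7.96 to 15.3 FPKM in COLO858 and from 20.2 to 27.8 in MMACSF, and PFKFB2 from 4.05 to 9.78 and from 6.94 to 11.4. PFKFB4 made up 77.5% and 75.3% of the summed FPKM of these 3 genes in the DMSO libraries of COLO858, 48.9% and 48.1% at 24 h, and 35.8% and 29.6% at 48 h. In MMACSF its share was 51.7% and 48.9% under DMSO, 7.18% and 6.43% at 24 h, and 4.20% and 4.84% at 48 h. PFKFB3 was thus the most abundant of the 3 in every drug library of MMACSF and, in COLO858, in the libraries of 48 h but not of 24 h.

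**Figure D2:**
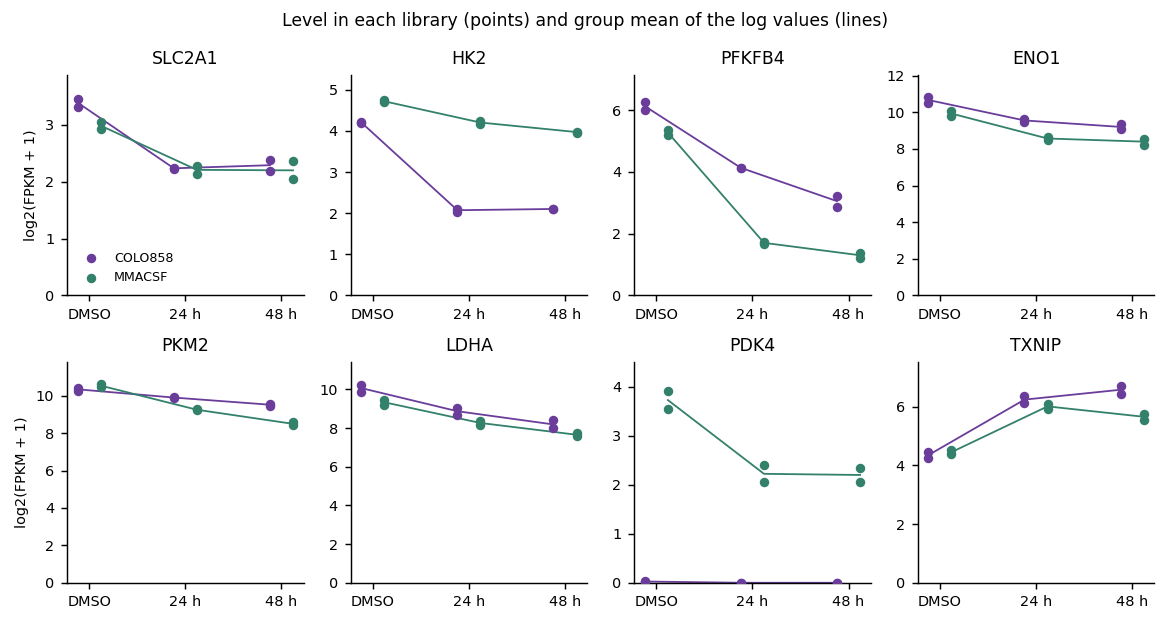
Level of 8 genes in each library as log2(FPKM + 1), under DMSO and at 24 and 48 h in vemurafenib, for COLO858 (purple) and MMACSF (green). Each point is a library and lines join the means of the 2 log values. HK2 was at 3.33 FPKM or less in the drug libraries of COLO858 and at 14.5 or more in those of MMACSF, PFKFB4 was lower in drug in both lines, PDK4 was near 0 throughout COLO858, and TXNIP was higher in drug in both lines.

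The lower part of glycolysis, from aldolase to pyruvate kinase, is where most of the transcripts lay. Summed over the 17 enzymes, from the hexokinases to the lactate dehydrogenases, FPKM in COLO858 was 17450 and 15460 under DMSO, 12680 and 12010 at 24 h, and 10970 and 10340 at 48 h. In MMACSF the sum was 10950 and 9923 under DMSO, 6195 and 5816 at 24 h, and 5471 and 4844 at 48 h. Every drug library was below both DMSO libraries of its line. In COLO858, limma called 3 of the 17 enzymes lower at 24 h and 7 at 48 h, and of the 16 tested in MMACSF it called 5 and 9 lower, with 0 called higher. Of all genes tested, limma called 5.71% and then 4.73% lower in COLO858, and for MMACSF 3.6% and then 5.41%. At an unadjusted p under 0.05 in either direction, 11 and 13 enzymes passed in COLO858, beside 40.3% and 39.3% of all genes, and 13 and 13 in MMACSF, beside 36% and 38.9%. The median change of the enzymes tested at 48 h was -0.71 in COLO858 and -0.92 in MMACSF.

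Aldolase cleaves the 6-carbon sugar. ALDOA, its main form, ranged from 1207 to 2692 FPKM in COLO858 and from 785 to 1522 in MMACSF and was not called. ALDOC, the form found mostly in brain, was at 73.0 and 72.2 FPKM under DMSO in COLO858, 54.1 and 51.1 at 24 h, and 29.2 and 29.6 at 48 h. The replicates were close and it fell at 48 h (-1.28 ± 0.12, adjusted p = 0.00266). Its level in MMACSF was 0.456 FPKM or less in every library, and it was listed at 0 in replicate 2 of both drug times.

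TPI1 interconverts the 2 triose phosphates. In MMACSF it was at 522 and 469 FPKM under DMSO, 242 and 233 at 24 h, and 196 and 167 at 48 h, and it fell at both times (-1.06 ± 0.13 and -1.45 ± 0.13, adjusted p = 0.00671 and 0.00229). The values in COLO858 were 1032 and 905 FPKM under DMSO, 790 and 754 at 24 h, and 678 and 647 at 48 h. The groups did not overlap there either, but the changes of -0.32 ± 0.11 and -0.54 ± 0.11 were not called (adjusted p = 0.0945 and 0.0248).

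GAPDH, which makes the first NADH of the pathway and is often used as a reference transcript, was called lower in 1 of the lines. MMACSF libraries held it at 3685 and 3261 FPKM under DMSO, 2163 and 2011 at 24 h, and 1831 and 1570 at 48 h, and it fell at 48 h (-1.03 ± 0.14, adjusted p = 0.00709). In COLO858 it was at 7022 and 5934 FPKM under DMSO, 5719 and 5379 at 24 h, and 5191 and 4772 at 48 h, a change of -0.38 ± 0.12 at 48 h that was not called (adjusted p = 0.0767). The annotation names 65 pseudogenes after GAPDH, which could take up part of its reads. In all, 16 of the 36 members have such pseudogenes and 16 overlap exons on the other strand, and the strand setting of the counting is not stated.

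PGK1 makes the first ATP. The values in MMACSF were 217 and 252 FPKM under DMSO, 110 and 133 at 24 h, and 83.9 and 95.4 at 48 h, and it fell at 48 h (-1.38 ± 0.15, adjusted p = 0.00441). COLO858 libraries held it at 333 and 389 FPKM under DMSO, 224 and 269 at 24 h, and 195 and 250 at 48 h, where the change of -0.70 ± 0.18 was not called (adjusted p = 0.044).

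PGAM1 moves the phosphate within phosphoglycerate and was called lower in all 4 comparisons with DMSO. It was at 237 and 237 FPKM under DMSO in COLO858, 147 and 143 at 24 h, and 138 and 138 at 48 h, changes of -0.71 ± 0.11 and -0.78 ± 0.11 (adjusted p = 0.00913 and 0.00737). For MMACSF the levels were 121 and 108 FPKM under DMSO, 61.4 and 58.3 at 24 h, and 47.3 and 44.7 at 48 h, changes of -0.92 ± 0.12 and -1.30 ± 0.12 (adjusted p = 0.00724 and 0.00233). The annotation names 13 pseudogenes after it.

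Enolase makes phosphoenolpyruvate. ENO1 (chr1:8921059-8939249), its general form, was at 1823 and 1452 FPKM under DMSO in COLO858, 807 and 698 at 24 h, and 647 and 533 at 48 h. It fell at 48 h (-1.47 ± 0.17, adjusted p = 0.00518), and the change at 24 h was just outside the threshold (-1.12 ± 0.17, adjusted p = 0.0106). Its level in MMACSF was 1080 and 879 FPKM under DMSO, 404 and 354 at 24 h, and 376 and 300 at 48 h, and it fell at both times (log2 -1.36 ± 0.17 and -1.53 ± 0.17, adjusted p = 0.00769 and 0.00459).

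ENO2, the neuronal enolase, was at 228 and 195 FPKM under DMSO in COLO858, 94.9 and 94.4 at 24 h, and 104 and 94.7 at 48 h. The drop was complete at 24 h and it fell at both times (-1.15 ± 0.13 and -1.08 ± 0.13, adjusted p = 0.00458 and 0.00574). In MMACSF it was at 25.4 and 23.7 FPKM under DMSO, 16.7 and 16.2 at 24 h, and 16.7 and 15.9 at 48 h. Those changes, -0.55 ± 0.12 and -0.56 ± 0.12, were not called (adjusted p = 0.0289 and 0.0233).

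Pyruvate kinase makes pyruvate and ATP. PKM2 (now PKM, chr15:72491370-72524160) is counted here as a whole gene, so its M1 and M2 splice forms are not told apart. MMACSF libraries held it at 1584 and 1400 FPKM under DMSO, 624 and 595 at 24 h, and 382 and 341 at 48 h. It fell by 2.44-fold and 4.12-fold on the FPKM + 1 scale (log2 -1.29 ± 0.12 and -2.04 ± 0.12, adjusted p = 0.00375 and 0.000839). The values in COLO858 were 1384 and 1219 FPKM under DMSO, 979 and 936 at 24 h, and 760 and 709 at 48 h, and it fell at 48 h (-0.82 ± 0.11, adjusted p = 0.00785). The 24 h change there was -0.44 ± 0.11 (adjusted p = 0.0436).

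Lactate dehydrogenase turns pyruvate into lactate, with LDHA as the form that favors lactate. LDHA (chr11:18416107-18429972) was at 941 and 1216 FPKM under DMSO in COLO858, 414 and 525 at 24 h, and 251 and 335 at 48 h. The values in MMACSF were 590 and 700 FPKM under DMSO, 286 and 326 at 24 h, and 190 and 211 at 48 h. Levels were lower in every drug library of both lines, and LDHA fell at 48 h in COLO858 (-1.88 ± 0.22, adjusted p = 0.00518) and at both times in MMACSF (-1.07 ± 0.14 and -1.68 ± 0.14, adjusted p = 0.00851 and 0.00204). At 24 h in COLO858 the change was -1.20 ± 0.22 (adjusted p = 0.0174).

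LDHB, the form that favors pyruvate, was not called. It ranged from 991 to 1471 FPKM in COLO858 and from 616 to 982 in MMACSF. LDHA made up 43.7% and 45.3% of the summed FPKM of LDHA and LDHB in the DMSO libraries of COLO858, 28.5% and 30.0% at 24 h, and 20.2% and 20.7% at 48 h. In MMACSF its share was 39.8% and 41.6% under DMSO, 31.5% and 32.0% at 24 h, and 23.5% and 24.7% at 48 h. In both lines the 3 groups did not overlap and the share was lowest at 48 h.

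**Figure D3:**
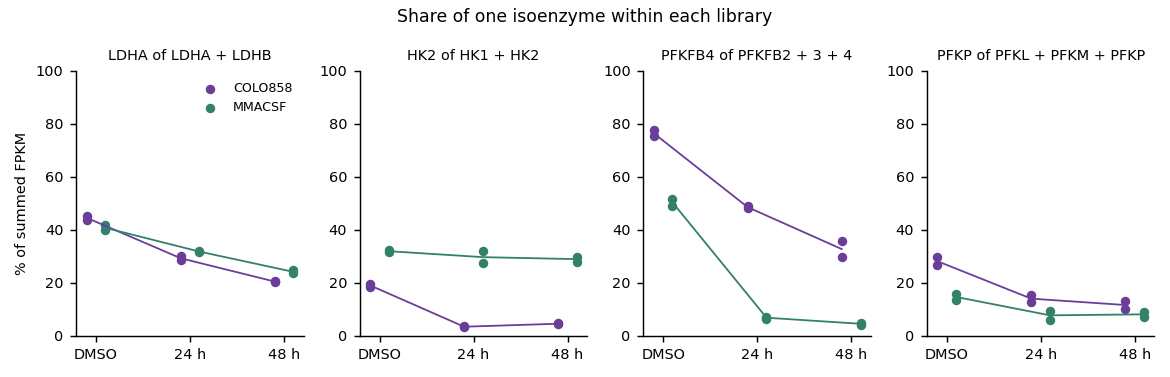
Share of LDHA, HK2, PFKFB4, and PFKP in the summed FPKM of their isoenzymes, in percent, in each library of COLO858 (purple) and MMACSF (green). Each point is a library and lines join group means. The LDHA share was between 39.8% and 45.3% in the DMSO libraries and between 20.2% and 24.7% at 48 h. The HK2 share was at most 4.82% in the drug libraries of COLO858 and at least 27.5% in those of MMACSF.

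Lactate leaves the cell through monocarboxylate transporters. SLC16A3 (MCT4, chr17:80175810-80219005), the form typical of glycolytic cells, was at 29.8 and 18.7 FPKM under DMSO in COLO858, 5.77 and 2.24 at 24 h, and 3.03 and 2.36 at 48 h. It fell at 48 h (-2.75 ± 0.41, adjusted p = 0.00962), and at 24 h the change of -2.40 ± 0.41 was not called (adjusted p = 0.0138). The 48 h call is close to the threshold and its replicates under DMSO were far apart. In MMACSF it reached at most 0.332 FPKM in any library and was not tested. An exon of CSNK1D overlaps it on the other strand. SLC16A1 (MCT1), which carries lactate in either direction, ranged from 25.6 to 61.7 FPKM in COLO858 and from 19.0 to 38.0 in MMACSF and was not called.

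Pyruvate dehydrogenase kinases hold back the use of pyruvate in mitochondria. PDK4 (chr7:95212811-95225828), the form induced by fasting, was at 10.8 and 14 FPKM under DMSO in MMACSF, 3.15 and 4.27 at 24 h, and 3.18 and 4.06 at 48 h. It fell at 48 h (-1.53 ± 0.21, adjusted p = 0.00797), and the change at 24 h was just outside the threshold (-1.51 ± 0.21, adjusted p = 0.0101). In COLO858 it was at 0.0127 and 0.0230 FPKM under DMSO and listed at 0 in the 4 drug libraries.

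PDK1, a HIF target, was at 8.22 and 10.5 FPKM under DMSO in COLO858, 3.43 and 5.11 at 24 h, and 3.37 and 4.02 at 48 h. Its level in MMACSF was 4.54 and 6.74 FPKM under DMSO, 2.00 and 2.68 at 24 h, and 1.65 and 2.21 at 48 h. It was below DMSO in every drug library but not called, with 48 h changes of -1.14 ± 0.22 and -1.17 ± 0.23 (adjusted p = 0.0208 and 0.021). PDK2, the widely expressed form, differed in the other direction and was above DMSO in every drug library of both lines. Its 48 h changes were 0.91 ± 0.17 in COLO858 and 0.70 ± 0.14 in MMACSF (adjusted p = 0.0167 and 0.0202), also not called. PDK3 had a 24 h change of 1.12 ± 0.20 in COLO858 (adjusted p = 0.0151) and ranged from 4.56 to 12.1 FPKM there and from 3.74 to 6.47 in MMACSF.

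The pentose phosphate pathway makes NADPH and ribose, and none of its 3 members was called. TKT, a transketolase that links the pathway back to glycolysis, was at 489 and 357 FPKM under DMSO in COLO858, 494 and 350 at 24 h, and 510 and 372 at 48 h. In MMACSF it was at 492 and 367 FPKM under DMSO, 367 and 280 at 24 h, and 468 and 336 at 48 h. The groups overlapped in COLO858 at both times, and the spread between replicates was larger than the difference between groups. At 48 h the change was 0.06 with an interval from -0.61 to 0.73 in COLO858, and -0.10 with an interval from -0.71 to 0.51 in MMACSF (95% limits from limma). PGD, which makes NADPH, was below DMSO in every drug library, at -0.69 ± 0.12 in COLO858 and -0.50 ± 0.13 in MMACSF at 48 h (adjusted p = 0.0139 and 0.0413). TALDO1, a transaldolase, had changes of 0.29 ± 0.13 and -0.29 ± 0.13 (adjusted p = 0.172 and 0.158).

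HIF1A encodes the oxygen-regulated subunit of HIF-1, which is controlled mainly through protein stability. Its transcript was at 56.8 and 78.3 FPKM under DMSO in COLO858, 51.7 and 64.3 at 24 h, and 48.3 and 61.8 at 48 h, with overlap between groups. MMACSF libraries held it at 34.1 and 47.0 FPKM under DMSO, 23.5 and 26.5 at 24 h, and 20.7 and 25.3 at 48 h, below DMSO without overlap. The 48 h changes were -0.28 ± 0.23 and -0.78 ± 0.20 (adjusted p = 0.418 and 0.0411), and none was called. HIF protein was not measured in these data.

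VEGFA, an angiogenic growth factor and HIF target, was at 14.3 and 12.5 FPKM under DMSO in COLO858, 7.29 and 6.95 at 24 h, and 7.39 and 6.69 at 48 h. These changes, -0.83 ± 0.15 and -0.84 ± 0.15, were just outside the threshold (adjusted p = 0.015 and 0.014). The values in MMACSF were 5.83 and 6.47 FPKM under DMSO, 3.15 and 4.91 at 24 h, and 4.51 and 4.16 at 48 h, with a 48 h change of -0.42 ± 0.21 (adjusted p = 0.196). CA9, a carbonic anhydrase that hypoxia induces, was at 2.22 and 0.357 FPKM under DMSO in COLO858, 0.0962 and 0 at 24 h, and listed at 0 at 48 h. Its DMSO replicates were far apart and the 48 h change of -1.06 ± 0.40 was not called (adjusted p = 0.114). It was listed at 0 in all 6 libraries of MMACSF. BNIP3, a mitophagy receptor with 44 pseudogenes named after it, had 48 h changes of -0.74 ± 0.18 in COLO858 and 0.16 ± 0.14 in MMACSF (adjusted p = 0.0357 and 0.437).

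TXNIP binds thioredoxin and limits glucose uptake, and its transcript is known to rise with glucose phosphates in the cell. TXNIP (chr1:145438490-145442635) was at 17.8 and 21.0 FPKM under DMSO in COLO858, 68.1 and 81.6 at 24 h, and 85.4 and 104 at 48 h. For MMACSF the levels were 20.0 and 21.8 FPKM under DMSO, 59.2 and 67.8 at 24 h, and 45.7 and 53.4 at 48 h. Every drug library lay above both DMSO libraries, and in MMACSF the 48 h libraries lay below those of 24 h. It rose by 3.71-fold and 4.68-fold on the FPKM + 1 scale in COLO858 (log2 1.89 ± 0.18 and 2.23 ± 0.18, adjusted p = 0.00273 and 0.00182) and by 2.95-fold and 2.31-fold in MMACSF (1.56 ± 0.14 and 1.21 ± 0.14, adjusted p = 0.00312 and 0.00488).

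From 24 to 48 h no member was called by limma in either line, beside 1.38% of all genes in COLO858 and 0.222% in MMACSF. At an unadjusted p under 0.05 there were 12 of 35 in COLO858, beside 20.1% of all genes, and 8 of 33 in MMACSF, beside 6.98%. With the replicate number as a block, 14 of 35 were called in COLO858, beside 18% of all genes, while MMACSF had 0 of 33 called by limma, beside 0.254%. The smallest adjusted p-values in COLO858 were those of ALDOC (-0.82 ± 0.12, adjusted p = 0.023) and PFKFB4 (-1.08 ± 0.18, adjusted p = 0.0332). In MMACSF PKM2 had the smallest, at -0.75 ± 0.12 (adjusted p = 0.149), all without the block.

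Whether a change differed between the lines was tested as the change in COLO858 minus the change in MMACSF over the 12 libraries. At 24 h 4 of 36 members were called, beside 3.71% of all genes, and at 48 h 5 of 36, beside 7.48%. With the replicate number as a block these were 18, beside 17.6% of all genes, and 21, beside 25.3%. HK2 fell more in COLO858 at both times, by a difference of -1.62 ± 0.13 at 24 h and -1.36 ± 0.13 at 48 h (adjusted p = 0.000385 and 0.000407). PKM2 fell more in MMACSF at 48 h (1.22 ± 0.16, adjusted p = 0.0014), as did TPI1 (0.90 ± 0.16, adjusted p = 0.00688). GPI differed at 24 h (0.83 ± 0.13, adjusted p = 0.00707), and PFKFB4, which was lower in both lines, differed at 24 h (1.57 ± 0.21, adjusted p = 0.00332) and by 0.90 ± 0.21 at 48 h (adjusted p = 0.0232).

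For SLC16A3 and PDK4 the difference was in effect the change of a single line, since the gene was barely detected in the other line. SLC16A3 differed at 48 h (-2.61 ± 0.48, adjusted p = 0.00799) with at most 0.332 FPKM in MMACSF. PDK4 differed at both times (1.48 ± 0.24 and 1.504 ± 0.24, adjusted p = 0.00697 and 0.00385) with at most 0.0230 FPKM in COLO858. From 24 to 48 h none of the 36 was called by limma, beside 2.96% of all genes, and 7 passed at an unadjusted p under 0.05, beside 17.4%. With the replicate block 7 were called, beside 13% of all genes. LDHA and ENO1, with differences of -0.20 ± 0.28 and 0.07 ± 0.26 at 48 h, were not shown to differ (adjusted p = 0.726 and 0.922).

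**Figure D4:**
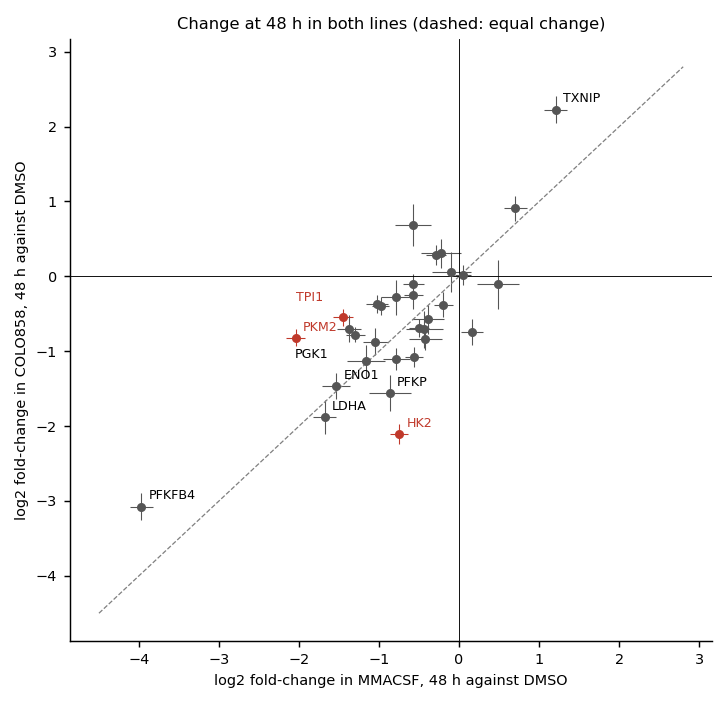
Log2 fold-change of FPKM + 1 at 48 h against DMSO in COLO858 (vertical) and MMACSF (horizontal) for the 32 members tested in both lines. Bars are the limma SE, the dashed line marks equal change, and red marks members whose change differed between the lines at an adjusted p under 0.01. HK2 lies below the dashed line, PKM2 and TPI1 lie above it, and LDHA and ENO1 lie near it.

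Other genes of these pathways were followed in lists written from general knowledge, and the genes behind counts of 5 or fewer are named after their values were seen. Their counts at 48 h stand beside 4.74% of all genes called higher and 4.73% lower in COLO858, and 3.42% and 5.41% in MMACSF. A list of 11 genes covered pyruvate transport into the mitochondrion, the conversion of pyruvate there, and regulators of that conversion. Of these 11, 0 were called by limma at 48 h in either line. An unadjusted p under 0.05 was reached by 3 in COLO858 and 6 in MMACSF, beside 39.3% and 38.9% of all genes. Of 7 further pentose phosphate genes tested in each line, 2 fell in COLO858 (RPIA and PRPS1), and in MMACSF 2 fell (PRPS1 and PRPS2) and 1 rose (H6PD) at 48 h. PRPS1, which makes the activated ribose for nucleotides, fell in both lines (-1.15 ± 0.17 and -1.21 ± 0.12, adjusted p = 0.00962 and 0.00346). Of 16 further glycolysis genes tested in COLO858, 2 rose (PGAM2 and SLC16A4) and 0 fell, and of 14 in MMACSF 0 were called by limma. SLC16A4, a relative of the monocarboxylate transporters, rose in COLO858 (2.05 ± 0.25, adjusted p = 0.00545).

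Further hypoxia genes did not move as one. Of 17 tested in COLO858, 1 rose (MXI1) and 4 fell at 48 h (NDRG1, CA12, AK4, and BHLHE40), and of 16 in MMACSF 1 rose (MXI1) and 1 fell (BHLHE40), beside the shares of all genes just given (4.74% and 4.73%, then 3.42% and 5.41%). NDRG1, which hypoxia induces, fell in COLO858 from 21.2 and 15.9 FPKM under DMSO to 4.68 and 4.19 at 48 h (-1.83 ± 0.18, adjusted p = 0.00327). Its level in MMACSF was 18.02 and 14.1 under DMSO and 24.2 and 21.7 at 48 h (0.50 ± 0.15, adjusted p = 0.0708), and the difference between the lines was called (-2.33 ± 0.23, adjusted p = 0.00041). CA12, a carbonic anhydrase, fell in COLO858 (-1.59 ± 0.14, adjusted p = 0.00251). MXI1, a MYC antagonist, rose in both lines (2.55 ± 0.27 and 1.94 ± 0.21, adjusted p = 0.00395 and 0.00398).

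Of the 8 HIF subunits and regulators tested in each line, 1 rose in each, beside 4.74% of all genes in COLO858 and 3.42% in MMACSF. EPAS1 (HIF-2α) rose in COLO858 from 1.06 and 1.15 FPKM under DMSO to 6.96 and 7.47 at 48 h (1.96 ± 0.13, adjusted p = 0.00125), while in MMACSF it was at 19.7 and 19.4 and then 22.2 and 23.5 (0.22 ± 0.12, adjusted p = 0.251). The difference was called (1.75 ± 0.15, adjusted p = 0.000205). ARNT2, a HIF partner subunit, rose in MMACSF (1.12 ± 0.14, adjusted p = 0.00618) and differed from COLO858 (-1.87 ± 0.17, adjusted p = 0.000242).

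Of the 6 genes tested around MondoA and ChREBP, 1 fell in COLO858 (MYC), and in MMACSF 1 rose (ARRDC4) and 2 fell (MYC and TXN) at 48 h, beside 4.73% of all genes called lower in COLO858 and 3.42% called higher and 5.41% lower in MMACSF. ARRDC4, like TXNIP a target of MondoA, was at 3.38 and 4.42 FPKM under DMSO in MMACSF and 9.43 and 10.5 at 48 h, and it rose (1.17 ± 0.17, adjusted p = 0.00839). The pair of CACGNG motifs seen in TXNIP was not found in the promoter window of ARRDC4. MYC, a known activator of glycolytic genes, fell in both lines (-1.68 ± 0.16 and -1.23 ± 0.18, adjusted p = 0.00274 and 0.00842). TXN, the thioredoxin that TXNIP binds, and BHLHE40, a hypoxia-induced repressor, fell in MMACSF (-1.58 ± 0.11 and -1.54 ± 0.11, adjusted p = 0.00114 and 0.00126).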

How the data were processed

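RNA-seq libraries were made from poly(A) RNA with a stranded kit and sequenced as single reads of 50 bases. Per the labels and the methods of the study, the authors mapped reads with TopHat to hg19 and obtained gene values with Cuffdiff. The FPKM used here are the authors' deposited values, 1 table per line. Program versions, gene annotation, strand setting, and library scaling are not given in the sources used here. Depth is unknown, since reads cannot be recovered from FPKM, and the precision it sets for a library is therefore unknown too. All 12 value columns were used.

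Groups were taken from the sample labels. Each line was fitted with limma 3.58.1 in R 4.3.3 as 3 groups on log2(FPKM + 1), with a mean-variance trend, over genes that averaged 1 FPKM or more in any group (12696 in COLO858, 12599 in MMACSF). Differences between lines were tested as an interaction in 6 groups over 12 libraries (13595 genes). Tests were two-sided with Benjamini-Hochberg adjustment over all genes tested and a threshold of 0.01. No level was tested across the tables. Gene positions come from GENCODE v44, lifted to GRCh37. The search for paired E-box-like motifs and the CACGAG pair was added after the other motifs. The members, lists, and tests were chosen with earlier results of these data known.

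Members called within a line, and SLC2A1, HK2, PKM, LDHA, PDK1, TKT, HIF1A, VEGFA, CA9, and TXNIP, were given in every library. Of other pathway genes, up to 3 called rises and falls per line at 48 h were given with values, and PRPS1 was added after its values were seen. On simulated data with 200 genes changed by a log2 of -2 at 48 h, 114 were recovered in COLO858 (12142 genes tested) and 145 in MMACSF (12103 genes), each with 2 false calls. The simulated libraries varied independently and all other genes were unchanged, whereas in the data same-numbered libraries deviated together and many genes changed. These counts therefore do not give the error rate of the fits used here. Alternatives were 0.1 FPKM added, no minimum or 10 FPKM, a replicate block, median-ratio rescaling, small RNA genes left out, no trend, a threshold of 0.05, a spread from the 4 libraries compared, and each library left out.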

Additional observations from a re-analysis of the deposited data

Results flagged for a closer look

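The results given here are members whose change in COLO858 minus the change in MMACSF was past an adjusted p of 0.01 in the limma interaction test, on the log2(FPKM + 1) scale. At 24 h the difference was -1.62 for HK2, 0.83 for GPI, 1.57 for PFKFB4, and 1.48 for PDK4. At 48 h it was -2.61 for SLC16A3, -1.36 for HK2, 0.90 for TPI1, 1.22 for PKM2, and 1.504 for PDK4. A value below 0 means a more negative change in COLO858, and a value above 0 a more negative change in MMACSF. SLC16A3 was under 1 FPKM in MMACSF and PDK4 in COLO858, so their differences are the change of a single line. HK2 at both times and PKM2 at 48 h passed with each of the 8 libraries of the comparison left out in turn, while GPI, PDK4 at 24 h, and SLC16A3 passed in none of these fits.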

How the results depend on the processing

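Counts of called members are given in the order COLO858 at 24 h, 48 h, and 48 against 24 h, then MMACSF likewise, then the difference between lines likewise. They were 6, 11, 0, 7, 13, 0, 4, 5, and 0. With the replicate number as a block they were 25, 27, 14, 25, 25, 0, 18, 21, and 7. The numbers are shared by the labels but not said to pair libraries, and deviations of same-numbered libraries correlated at 0.196 to 0.211 in COLO858 and 0.0628 to 0.113 in MMACSF, or 0.72 to 0.772 and 0.59 to 0.664 without small RNA genes. At an adjusted p of 0.05 they were 17, 20, 2, 17, 21, 0, 10, 12, and 1. With a spread from the 4 libraries compared, COLO858 had 3 and 4 against DMSO and MMACSF 2 and 6. Without small RNA genes the 24 h counts were 11 and 11, median-ratio rescaling gave 6 in COLO858 at 48 h, and a minimum of 10 FPKM gave 3 for the difference at 48 h. With single libraries left out, the counts against DMSO were 0 to 0 and 1 to 1 in COLO858, 1 to 1 and 1 to 2 in MMACSF, and 1 to 2 and 2 to 3 for the difference. The group that lost a library is then assumed to vary like the others. Other counts stayed within 1.5 times. Shares of all genes called are given above for the main fit and the block only. Shifts of the counts in the other settings are therefore not read as results about the members.

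Of 909 alternative values of single members, 633 kept direction and side of the threshold, 240 lost the call, 29 gained it, and 7 changed sign, none of them called. The sign changes came with a library left out. Those fits had no replicate block, although same-numbered libraries deviated together, as given above. TKT then ranged from -0.26 to 0.24 at 24 h in COLO858, positive without DMSO replicate 1 (0.22) or 24 h replicate 2. It ranged from -0.17 to 0.29 at 48 h in COLO858, negative without DMSO replicate 2 (-0.167) or 48 h replicate 1 (-0.167), and from -0.34 to 0.14 in MMACSF, positive without DMSO replicate 1 (0.11) or 48 h replicate 2. HIF1A at 24 h in COLO858 ranged from -0.43 to 0.0229, positive without DMSO replicate 2. All 46 called values kept their sign in every fit, 18 passed in every setting other than leaving out a library, and 6 passed with any library left out. The cause of these shifts was not tested. With 2 libraries a group and unknown depth, a change short of the threshold is not shown to be absent.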
